A study of Mus musculus with 18 samples.

Results

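The heart list of BMAL1 binding sites held 2519 peaks, of 11366 peaks in the 3 lists of the study, which also mapped liver and kidney. All peaks of the heart list were taken, ranked by the whole-number score that the authors gave each peak, and given to whichever protein-coding gene lay closest, up to 50 kb away. Peaks of equal score were ordered by chromosome and start. The assay was ChIP-seq, the sequencing of DNA precipitated with an antibody. The mice were wild-type C57BL/6, 3 to 6 months old, on a cycle of 12 h light and 12 h dark with free access to food. Liver, kidney and heart came from the same animals, 3 mice per tissue, at zeitgeber time 6 (ZT6, 6 h after lights on). From 18 libraries, 6 heart libraries entered the heart list: 3 precipitated with an affinity-purified chicken antibody against mouse BMAL1, and 3 input libraries of chromatin without that step. The sex of the mice is not in the labels used here. The authors pooled all ChIP and all input libraries of a tissue into 1 list, so the list has no value per animal, no spread between animals and no test over mice. Whole hearts were used, and binding in more cells cannot be told apart from stronger binding per cell. For the 3 heart inputs the source label reads kidney, whereas titles and tissue labels read heart; its part in the peak list was not tested, and every heart value below rests on those libraries. Peak lists hold no RNA levels, so the tissue label could not be checked against expressed markers.

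BMAL1, encoded by Arntl, is a basic helix-loop-helix protein that pairs with CLOCK or NPAS2 and binds E-box sequences, of which CACGTG is the classical form. The pair activates Per and Cry genes, whose proteins inhibit it, and Nr1d1 and Nr1d2, whose REV-ERB proteins repress Arntl; RORs act on the same Arntl elements in the opposite direction. In the heart the clock is known for daily rhythms in fuel use, electrical activity and the response to hormonal signals.

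The sequences below show what lies under 10 of the 30 highest-scoring heart peaks: the first 10, by rank, that share at least 100 bases with a promoter window of their own gene. A window runs from 250 bases before to 50 bases after a start site in the RefSeq table of GRCm38.p6, and printed stretches end at most 30 bases after the start. Each is given 5′ to 3′ on the gene's strand. Capitals mark CACGTG and the related E-box CACGTT, which reads AACGTG on the other strand.
Ciart: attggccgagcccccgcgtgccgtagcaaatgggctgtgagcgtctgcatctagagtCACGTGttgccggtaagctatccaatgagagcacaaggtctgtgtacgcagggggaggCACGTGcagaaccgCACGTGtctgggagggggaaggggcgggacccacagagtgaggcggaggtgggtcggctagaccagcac
Ankrd12: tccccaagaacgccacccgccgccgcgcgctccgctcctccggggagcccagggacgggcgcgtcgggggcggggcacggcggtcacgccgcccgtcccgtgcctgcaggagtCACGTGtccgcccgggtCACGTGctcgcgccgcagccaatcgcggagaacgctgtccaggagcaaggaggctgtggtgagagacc
Nptn: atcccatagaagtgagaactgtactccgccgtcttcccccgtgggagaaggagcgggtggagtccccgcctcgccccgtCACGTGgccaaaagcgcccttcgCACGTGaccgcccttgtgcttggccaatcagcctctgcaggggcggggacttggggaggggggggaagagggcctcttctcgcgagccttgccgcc
Klf11: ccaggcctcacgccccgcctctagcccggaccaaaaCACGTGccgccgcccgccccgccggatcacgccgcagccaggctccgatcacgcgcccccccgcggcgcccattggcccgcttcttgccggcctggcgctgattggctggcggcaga
Gpr146: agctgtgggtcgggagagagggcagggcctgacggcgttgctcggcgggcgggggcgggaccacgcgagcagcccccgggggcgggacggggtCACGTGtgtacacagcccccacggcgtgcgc
Nr1d1: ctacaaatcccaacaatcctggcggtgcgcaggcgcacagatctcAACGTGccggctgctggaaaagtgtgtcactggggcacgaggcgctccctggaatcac
Cry2: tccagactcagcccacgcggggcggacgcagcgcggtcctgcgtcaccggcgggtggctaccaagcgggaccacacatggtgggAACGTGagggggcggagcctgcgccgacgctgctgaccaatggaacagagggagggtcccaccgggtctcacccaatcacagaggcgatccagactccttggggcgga
Per3: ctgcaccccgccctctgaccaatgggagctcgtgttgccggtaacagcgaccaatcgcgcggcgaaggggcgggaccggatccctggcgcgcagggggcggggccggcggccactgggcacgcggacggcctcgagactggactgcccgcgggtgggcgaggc
Dbp: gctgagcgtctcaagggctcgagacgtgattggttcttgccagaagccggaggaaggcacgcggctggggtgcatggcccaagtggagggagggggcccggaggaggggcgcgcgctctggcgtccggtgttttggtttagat
Mapk6: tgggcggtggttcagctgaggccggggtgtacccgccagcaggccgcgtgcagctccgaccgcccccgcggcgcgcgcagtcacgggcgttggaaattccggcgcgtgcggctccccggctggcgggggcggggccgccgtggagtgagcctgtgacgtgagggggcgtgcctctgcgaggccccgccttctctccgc

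These stretches lie, in the same order, at chr3:95882204-95882401 (minus strand), chr17:66077023-66077220 (minus), chr9:58582024-58582221 (plus), chr12:24651121-24651273 (plus), chr5:139380545-139380668 (plus), chr11:98775348-98775450 (minus), chr2:92434128-92434319 (minus), chr4:151044636-151044798 (minus), chr7:45704997-45705139 (plus) and chr9:75410014-75410211 (minus). The stretch of Ciart, a repressor of the BMAL1 complex, held 3 copies of CACGTG, with 52 and then 8 bases between them. Ankrd12, an ankyrin repeat protein, had 2 copies separated by 11 bases, and Nptn, a membrane glycoprotein of the immunoglobulin superfamily, had 2 separated by 17 bases. Klf11, a Krüppel-like transcription factor, and Gpr146, a G protein-coupled receptor, had 1 copy each. Nr1d1 and Cry2 carried 1 CACGTT and no CACGTG. Neither word occurred in the printed stretches of Per3, Dbp and Mapk6, which says only that these letters are not there. In the 7 stretches with a capitalised word, the word nearest to the peak centre lay 3 to 52 bp from it: 3 bp in Gpr146, 6 bp in Nptn, 7 bp in Cry2, 15 bp in Klf11, 16 bp in Ankrd12, 18 bp in Ciart and 52 bp in Nr1d1.

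Across the whole heart list, 446 peaks had their centre in such a 300-base promoter window. CACGTG, which is its own reverse complement, occurred in the window of 182 of these peaks, or 40.8% (exact Clopper-Pearson 95% interval 36.2 to 45.5%). Of all 32817 windows in the table, bound ones included, 7.15% held it. All intervals here cover counting error over peaks or genes only, not the spread between mice. Among windows bound by peaks of rank 1 to 100 the share was 57.1% (20 of 35), and for ranks 101 to 500 it was 59.3% (89 of 150). Past rank 500 it was 28.0% (73 of 261, interval 22.6 to 33.8%). Heart peaks that overlapped a peak in both other tissues by at least 1 bp had the word in 59.6% of windows (109 of 183, 52.1 to 66.7%), and peaks found only in the heart list had it in 22.1% (36 of 163, 16.0 to 29.2%). Bound windows were rich in G and C, with a median of 68.7% against 52.7% for all windows. Within windows of at least 60% GC, a comparison added after seeing the data, 39.0% of 387 bound windows held CACGTG against 10.8% of all 9678.

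CACGTT, searched on both strands and not overlapping with CACGTG, occurred in 9.87% of bound windows and in 4.69% of all windows. One or the other word was present in 47.8% of bound and 11.4% of all windows. Windows with 2 or more copies of CACGTG made up 9.19% of the bound ones (41 of 446) and 0.594% of all. A pair of these words 6 or 7 bases apart, the spacing known from tandem E-boxes of clock genes, was found in 2 bound windows (0.448%) and in 0.0183% of all windows. The loose E-box CANNTG, which covers CACGTG but not CACGTT, was in 75.1% of bound and 72.3% of all windows. The GATA-type word AGATAA (3.14% against 11.2% of all windows), the TEAD-type GGAATG (7.40% against 14.7%) and the NKX2-5-type AAGTG (31.2% against 46.4%), each on both strands, had lower shares in bound windows than over all windows. The MEF2 motif was in 0 of 446 bound windows and 0.402% of all windows. For words other than CACGTG, no comparison within windows of at least 60% GC was made. Bound windows had a median GC of 68.7% against 52.7% for all windows, and its part in these lower shares was not tested. Peaks outside promoter windows were not read for any motif.

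The E-boxes lay near the peak centres. Within 50 bp of the centre, CACGTG occurred 4.03 times per 1000 positions read, against 0.418 times at 110 to 290 bp from the centre and 0.257 times over all promoter windows. Near the centre, the density was 6.33 per 1000 positions for peaks of rank 1 to 500 and 2.39 for the rest.

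**Figure D1:**
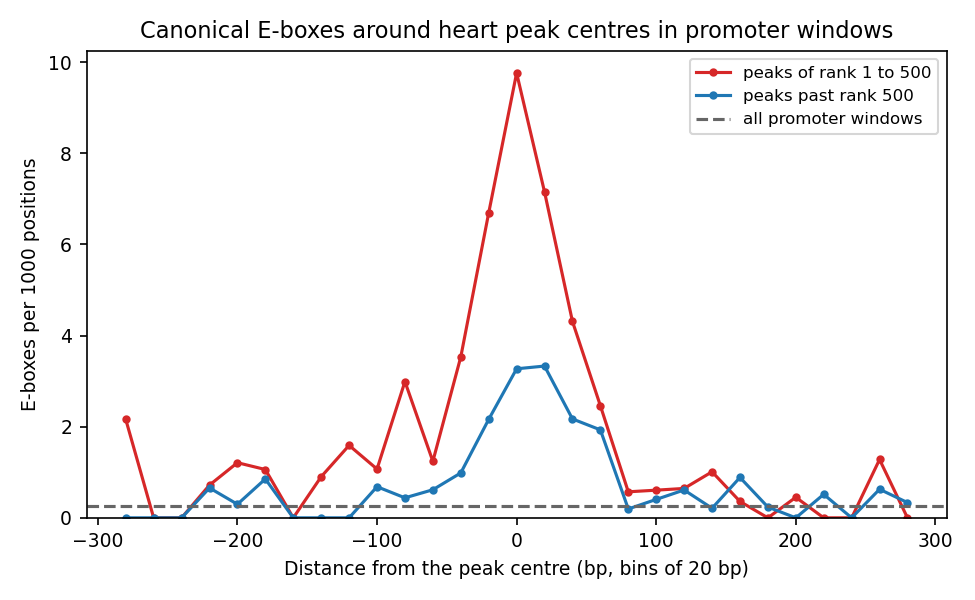
CACGTG per 1000 promoter positions (vertical axis) against distance from the heart peak centre in bp (horizontal axis, 20 bp bins), for peaks of rank 1 to 500 and for the rest, with the level over all promoter windows. Both curves are highest near the centre, and within 50 bp the higher-ranked peaks reach 6.33 and the others 2.39 per 1000 positions.

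Few peaks carried high scores. The scores ran from 16 to 375 with a median of 25, on a scale that the labels do not state, and they were compared only within the heart list. A score of at least 200 was given to 24 peaks, at least 100 to 145 and at least 50 to 493. The 100 highest-scoring peaks held 17.7% of the summed score, and 305 peaks were tied at the lowest score of 16.

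**Figure D2:**
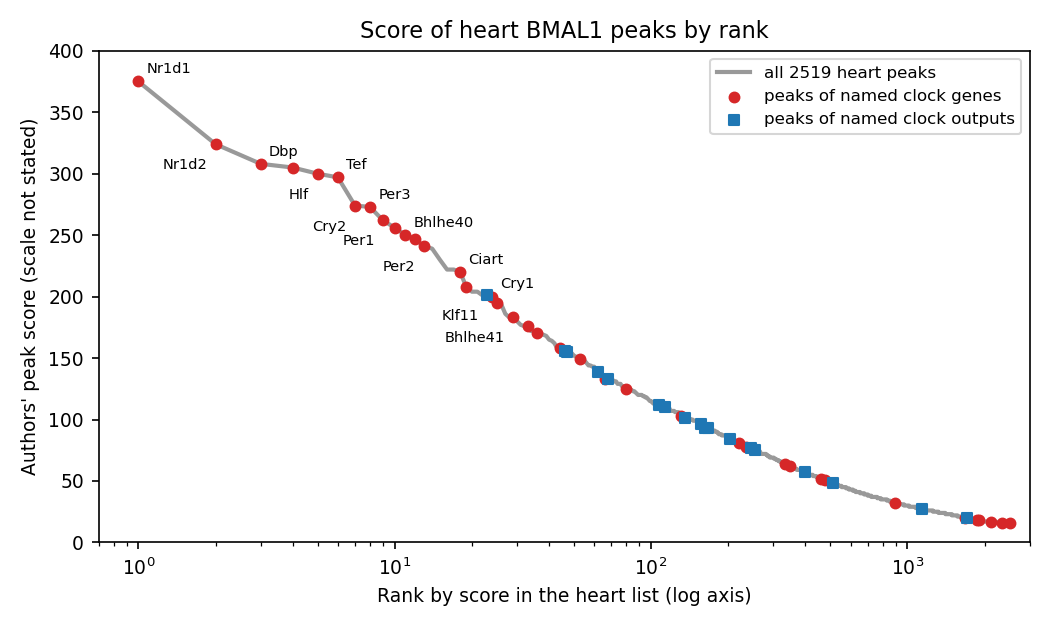
Authors' peak score (vertical axis, scale not stated) against rank in the heart list (horizontal log axis), with the line through all 2519 peaks and points for peaks of named clock genes (red) and named clock outputs (blue). Scores fall from 375 at rank 1 to 115 at rank 100 and to 16 at the end of the list, and the 10 highest points all belong to clock genes.

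Genes of the circadian clock held the top of the list. All 10 of the highest-scoring peaks were assigned to 8 clock genes, and all 10 overlapped a peak in liver and in kidney. Of the top 30 peaks 18 belonged to 13 clock genes, of the top 50 peaks 21 did, and of the top 100 peaks 24 did. Among the 24 genes of the clock list, 19 had at least 1 heart peak (79.2%, 57.8 to 92.9%), where 9.5% of all 21887 protein-coding genes had one (2080 genes). Their median best rank was 13, against 1172 over all 2080 genes. In the top 100, 14 clock genes had a peak. This list and those below were chosen with earlier results of these data known, so their shares are descriptions and not tests.

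The REV-ERB nuclear receptor genes held ranks 1 and 2. Nr1d1 had 3 peaks, with scores of 375, 305 and 247. The first, at chr11:98783396-98783593, lay 8.12 kb outside the gene, upstream of its start; the others lay inside the gene, 1.49 kb and 26 bp downstream of the start. Nr1d2 had 1 peak, of score 324, 516 bp downstream of its start (chr14:18238492-18238689). The Nr1d1 peak ranked 1 and the Nr1d2 peak ranked 2 held the same ranks in the liver list and in the kidney list.

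Dbp, Tef and Hlf encode the PAR bZIP transcription factors, which carry clock timing to output genes through D-box elements. Dbp had peaks of score 308, 256 and 208 at ranks 3, 10 and 19, all within 2.71 kb of one another. They formed the one place in the heart list where 3 peaks followed each other with neighbouring centres less than 5 kb apart; another 39 groups of such neighbours held 2 peaks each. The main Hlf peak (score 300, rank 5) lay 27.2 kb upstream of the start at chr11:90418033-90418230, whereas the peak 30 bp upstream of the start scored 176, and 2 peaks inside the gene scored 64 and 62. Tef had a peak of score 297 at rank 6, 452 bp upstream of a listed start, and 2 further peaks of scores 81 and 78.

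The inhibitory arm was represented by each Per and Cry gene. Cry2 had peaks of score 274 (rank 7, inside the gene 10.2 kb downstream of its start, chr2:92423793-92423990) and 195 (rank 25, 157 bp upstream of the start). Cry1 had a peak of score 200 at rank 24, 335 bp upstream of its start, and one of score 20 at rank 1679 that was found only in heart. Per3 scored 273 at rank 8, with the peak centre 34 bp upstream of the start. Per1 scored 262 at rank 9, 4.08 kb upstream of the start (chr11:69094774-69094971), and 158 at rank 44, 160 bp upstream. Per2 had 1 peak of score 241 at rank 13 (chr1:91459225-91459422) and another of score 32. Bhlhe40 and Bhlhe41 encode the DEC repressors, which compete for E-boxes. Their peaks scored 250, 133 and 103 for Bhlhe40, and 183, 170 and 149 for Bhlhe41. Ciart had 1 peak of score 220 at rank 18.

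The activating arm ranked far lower. Clock had 1 peak of score 18 at rank 1866 inside the gene, and Arntl 1 peak of score 16 at rank 2339, 18.9 kb outside the gene. Neither overlapped a liver or kidney peak, and both were close to the lowest score in the list. The ROR gene Rora had 2 heart-only peaks of scores 18 and 17. Nfil3, which represses D-box elements, had a heart-only peak of score 52 lying 26.2 kb outside the gene and a peak of score 51 inside it that was found in all 3 tissues. Btrc, an F-box protein of the ligase that marks PER proteins for degradation, had a peak of score 16. No heart peak was assigned to Npas2, to the kinase genes Csnk1d and Csnk1e, or to the F-box gene Fbxl21. Of the 38 peaks assigned to the clock list, 31 were found in all 3 tissues and 7 in heart only.

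Among the top 30 peaks, 11 were assigned to genes outside the clock list and 1 had no protein-coding gene within 50 kb. Rank 14, at chr6:91599079-91599276 with a score of 239, was the peak without a gene; the nearest protein-coding gene, Lsm3, was 76.6 kb away. Fbxl22, an F-box protein of the muscle Z-disc, had a peak of score 230 at rank 15, 2.76 kb downstream of its start. Mapk6, an atypical MAP kinase, and 1810013L24Rik both had a peak of score 222, with centres 96 bp and 734 bp upstream of the start. Pfkfb3, whose enzyme makes the fructose bisphosphate that stimulates glycolysis, had a peak of score 204 located 18.4 kb downstream of its start (chr2:11535432-11535629) and another of score 66. Ankrd12 scored 204 and Klf11 201. Zswim4 had a peak of score 201 lying 9.25 kb outside the gene, and this was the one top-30 peak with no overlapping liver peak; in kidney it ranked 193. Foxo3, a forkhead transcription factor, scored 194 (1.52 kb upstream of the start), Nptn 186, Pcbp1, a poly(C)-binding protein, 183 and Gpr146 180. Of the top 30 peaks, 16 had their centre within 1 kb of a listed start.

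The top heart peaks were mostly high in the other lists as well. Of the 100 highest heart peaks, 95 overlapped a liver peak, 59 of them one of the 100 highest there. All 100 overlapped a kidney peak, and 78 of these were among the 100 highest in kidney. The lowest rank reached was 944 in liver and 2311 in kidney. The kidney rank of 2311 belonged to a peak inside Stard3 (rank 67, score 133, chr11:98377910-98378107) that had no overlapping liver peak.

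Known clock outputs outside the core loop followed. In that list 12 of 19 genes had a heart peak (63.2%, 38.4 to 83.7%, against 9.5% of all protein-coding genes), with a median best rank of 110. The list was chosen with earlier results of these data known, so this share is a description and not a test. Klf11 stood first with 201. Klf9, a Krüppel-like factor, had peaks of 156, 93 and 84; the first lay 5.39 kb upstream of its start. Tspan4, a tetraspanin, scored 155, Klf15, a regulator of cardiac metabolism and ion channels, 139 and 93, Klf10 133, and Nampt, the rate-limiting enzyme of NAD salvage, 112. The 23 peaks of the list included 17 found in all 3 tissues and 3 found only in heart.

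A gene rarely held more than 1 heart peak. Of the 2080 genes with a peak, 1853 had 1 peak, 187 had 2, 34 had 3, 4 had 4 and 2 had 5. The 40 genes with 3 or more were 0.183% of protein-coding genes and held 128 peaks, or 5.08% of the list. They included 6 clock genes and 4 clock outputs. They were long genes, with a median length of 152 kb, against 43 kb for genes with 1 or 2 heart peaks and 17.2 kb for all protein-coding genes; assignment by nearest gene gives a long gene more peaks at any density, and the part of length was not tested.

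Rbm20 and Nav2 had 5 peaks each. Rbm20 is a splicing factor known for its action on titin transcripts in heart muscle. Its peaks scored 83, 78, 38, 35 and 20, all inside the gene of 206 kb, the highest at chr19:53801792-53801989. Of these, 4 were found only in heart, and the one of score 78 (chr19:53830574-53830771) overlapped a kidney peak of rank 870. Nav2, neuron navigator 2, is a gene of 651 kb. Its heart peaks scored 41, 41, 17, 17 and 17, 3 of them heart only and 2 shared with liver. The liver list gave Nav2 7 peaks and Rbm20 2, and the kidney list gave Nav2 none and Rbm20 1. Beside Hlf, the genes with 4 peaks were Tmcc3 (50, 34, 33 and 27), the corepressor gene Bcor (32, 29, 24 and 19) and the Mediator subunit gene Med13l (26, 23, 20 and 18).

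The genes with 3 peaks ranged from the top of the list to near its lowest score. Nr1d1, Dbp, Tef, Bhlhe40, Bhlhe41 and Klf9 each had 3 peaks that were all found in all 3 tissues, as had Usp2, a ubiquitin protease (101, 96 and 48); with Hlf these made up the 8 genes whose every peak was found in all 3. Tsc22d3, the glucocorticoid-induced leucine zipper gene, scored 110, 77 and 20, and Hes1, a helix-loop-helix repressor of the Notch pathway, 106, 88 and 36. Rere had peaks of 104, 41 and 19, Mef2d, a MEF2 factor of muscle, 92, 37 and 35, and Klf13 75, 57 and 27. Among signalling genes, the BMP receptor gene Bmpr1a scored 70, 19 and 17, Smad2, which carries TGF-beta signals, 65, 43 and 17, and Prkce, a protein kinase C, 63, 31 and 24. Itpr1, the inositol trisphosphate receptor, scored 68, 19 and 18. The phosphatase subunit gene Ppp2r5c scored 56, 23 and 17 and the ETS factor gene Elf2 57, 36 and 34. Lower still were Trak1 (49, 23 and 21), which links mitochondria to motor proteins, the focal adhesion gene Tns1 (45, 23 and 23), the splicing factor gene Rbfox2 (43, 36 and 28), Igf2r (40, 33 and 23), Agps, an enzyme of ether lipid synthesis (39, 35 and 16), and the zinc finger gene Casz1 (38, 21 and 17). The remaining 10 genes had scores of 16 to 37.

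Of the 40 genes, 9 had only heart-only peaks and 19 had at least 1 peak found in all 3 tissues. Of their 128 peaks 66 were heart only, a smaller share than the 1637 of all 2519 heart peaks (65.0%). Bmpr1a and Trak1 were among 6 genes that had no liver or kidney peak assigned at all. In the other lists 15 of the 40 genes also had 3 or more liver peaks and 17 had 3 or more kidney peaks. Over all 21887 protein-coding genes, 253 had 3 or more liver peaks and 134 had 3 or more kidney peaks. Of the 40 genes 20 had 3 or more in neither. Tns1 had 12 kidney and 5 liver peaks against 3 in heart. In 20 genes every peak lay inside the gene, in 6 the peaks spanned under 10 kb and in 15 they spanned over 100 kb. Only 15 of the 40 kept 3 peaks when the lower-scoring part of the list was left out.

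**Figure D3:**
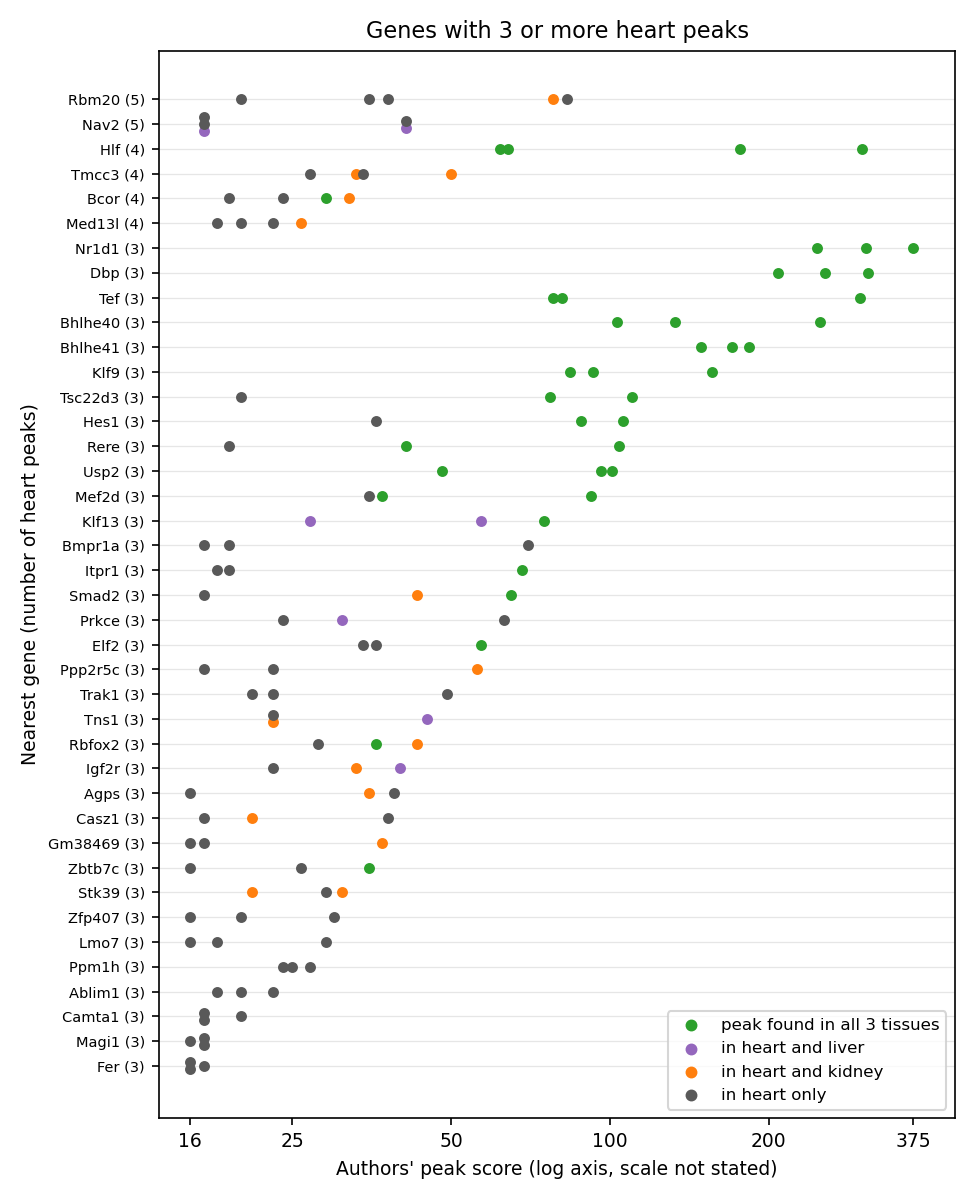
Authors' score (horizontal log axis, scale not stated) of every heart peak assigned to the 40 genes with 3 or more, 1 row per gene and 1 point per peak, coloured by the lists in which the peak was found; points of equal score are set apart vertically. Clock genes such as Nr1d1 (375, 305, 247) and Dbp (308, 256, 208) have only peaks found in all 3 tissues, whereas Rbm20 has 4 heart-only peaks among its 5.

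Genes of heart muscle function were then read from lists set by role. Sarcomere genes had a peak in 3 of 24 cases (12.5%, 2.66 to 32.4%), near the 9.5% of all protein-coding genes. Tcap, which caps titin at the Z-disc, had a peak of score 97 at rank 153, 278 bp outside the gene (chr11:98383435-98383632). Myl2, the ventricular regulatory light chain, had a peak of 45 inside the gene, and Actn2, the muscle alpha-actinin, peaks of 41 and 22, the first 16 bp upstream of its start. All 4 peaks were heart only, as were 65.0% of all heart peaks. The myosin heavy chain genes Myh6 and Myh7, Ttn and Mybpc3 had none assigned.

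Calcium handling genes had a peak in 5 of 16 cases (31.2%, 11 to 58.7%), beside 9.5% of all protein-coding genes. Camk2d, a calmodulin-dependent kinase, scored 38, Atp2a2, the calcium pump of the sarcoplasmic reticulum, 37 and 20, Jph2, which ties the junctional membranes together, 23, and Cacnb2, a calcium channel subunit, 21. Cardiac ion channel and junction genes had a peak in 6 of 20 cases (30.0%, 11.9 to 54.3%), beside the same 9.5%. Kcnj11, the pore of the ATP-sensitive potassium channel, scored 64, the connexin gene Gjc1 43, Kcnh2, the rapid delayed rectifier, 35 and 20, Kcnd3, a transient outward channel, 29, and Pkp2, a desmosomal protein, 16. Every one of the 14 peaks of these 2 lists was heart only. Of all heart peaks 65.0% were heart only, and that share was larger among peaks of low score. Whether these lists differ from it was not tested.

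Heart transcription factor genes had a peak in 6 of 20 cases (30.0%, 11.9 to 54.3%), beside 9.5% of all protein-coding genes. Mef2d led, with 2 peaks found in all 3 tissues. Nfatc1 scored 27, Gata4 26, Tead1 25, Mef2a 19 and Hand1 18, each with 1 heart-only peak. Nkx2-5 and Myocd had a heart peak within 50 kb that was nearer to another gene.

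Genes of fuel use were read by pathway. Of 32 genes of fatty acid use, 3 had a heart peak (9.38%, 1.98 to 25%), near the 9.5% of all protein-coding genes. None of the 3 peaks was heart only, and all 3 lay in ranks 1 to 252, where 96.0% of peaks were shared. Of the list 13 genes had a liver peak and 12 a kidney peak. Over all 21887 protein-coding genes, 3227 had a liver peak and 3048 a kidney peak. Those lists were longer, with 4813 and 4034 peaks against 2519 in heart. Dgat2, which makes triglycerides, scored 131 at rank 72. Fabp3, the fatty acid binding protein of heart, scored 101 at rank 134, 738 bp upstream of its start, and was shared with kidney at rank 64 there. Acsl1, an acyl-CoA synthetase, scored 89 at rank 183, 48 bp downstream of its start. Of 31 genes of glucose use, 9 had a heart peak (29%, 14.2 to 48.0%). Of their 12 peaks 8 were heart only, near the share of 65.0% over all heart peaks. After Pfkfb3 came Pfkl, a phosphofructokinase, with peaks of 87 and 16, the first 92 bp downstream of its start; Ldha, lactate dehydrogenase, 74; Gbe1, the glycogen branching enzyme, 74; Hk1, a hexokinase, 42; and Pkm, pyruvate kinase, 30. The difference between the pathways was not tested, nor was the part of gene length in any list's share.

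Respiratory chain and mitochondrial carrier genes had a peak in 2 of 20 cases (10.0%, 1.23 to 31.7%), near the 9.5% of all protein-coding genes. They were Vdac1 at 59 and Cycs, cytochrome c, at 16. Of 20 natriuretic peptide, adrenergic and angiotensin genes, 1 had a peak (5%, 0.127 to 24.9%), the endothelin receptor gene Ednra at 16. That interval also includes 9.5%. Nppa, Nppb, Nppc and Npr1 had a heart peak within 50 kb that was nearer to another gene.

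Assignment to a single nearest gene moved these counts. When any heart peak within 50 kb was counted, nearest or not, 22.7% of protein-coding genes had one (4970), and the counts were 20 of 24 clock genes, 14 of 19 outputs, 7 of 24 sarcomere genes, 7 of 16 calcium genes, 7 of 20 channel genes, 8 of 20 heart transcription factors, 6 of 32 fatty acid genes, 12 of 31 glucose genes, 5 of 20 hormone genes and 6 of 20 respiratory genes. This count was added after seeing the data.

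Marker genes of other cell types and tissues were read the same way, beside the 9.5% of all protein-coding genes. Endothelial markers had a heart peak in 3 of 12 cases (25%, 5.49 to 57.2%). They were Tie1 (25), Cldn5 (24 and 17) and Kdr (18), all 4 peaks heart only, as were 65.0% of all heart peaks. The interval of 5.49 to 57.2% overlaps those of the calcium and channel lists and includes 9.5%. Fibroblast markers had 1 of 10 (10%; Fn1, 18), macrophage and leukocyte markers 1 of 8 (12.5%; Cx3cr1, 18) and smooth muscle markers 0 of 6 (upper limit 45.9%). Liver markers had 1 of 20 (5%; F2, 17), where the liver list itself reached 8 of 20. Kidney markers had 2 of 19 (10.5%) in heart and 7 of 19 in the kidney list. Over all 21887 protein-coding genes, 3227 had a liver peak and 3048 a kidney peak. The Cdh16 peak scored 55 at rank 417, above the list median of 25, and was heart only, and the Cubn peak scored 19 and was found in all 3 tissues.

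**Figure D4:**
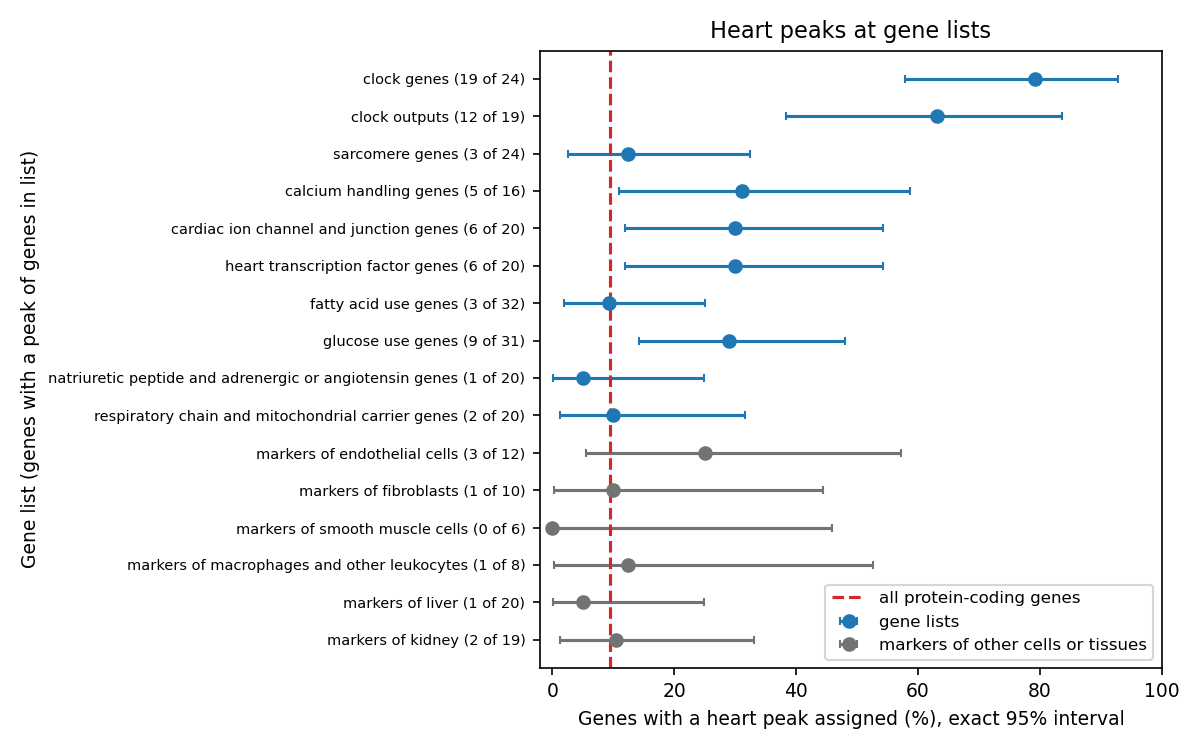
Share of each gene list with at least 1 heart peak assigned (percent of the measured genes), with exact Clopper-Pearson 95% intervals over genes and a dashed line at 9.5%, the share of all protein-coding genes; grey points are marker lists of other cells or tissues. The intervals of clock genes (79.2%) and clock outputs (63.2%) lie farthest above the line, and that of the sarcomere genes (12.5%) includes it. The lists were chosen with earlier results of these data known.

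Position relative to genes changed along the list. Of all heart peaks 64.3% lay inside a protein-coding gene, 29.2% outside but within 50 kb, and 6.51% (164 peaks) had none within 50 kb. The assigned peaks closest to that limit were those of Gata5 (50 kb, score 30) and Cstad (49.7 kb, score 55), and the nearest unassigned ones lay 50.1 kb from Kdm7a (score 28) and from P4ha2 (score 16). Start sites were listed for chromosomes that held 2429 of the peaks. Of these peaks 35.8% (869, 33.9 to 37.7%) had their centre within 1 kb of a listed start, 15.1% within 100 bp and 46.4% more than 10 kb from any. Of the 869, 482 were upstream and 387 at or downstream of the start, with the median centre 17 bp upstream.

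Shares at starts and in other tissues went down along the list. In ranks 1 to 252, 59.6% of peaks were within 1 kb of a start (53.2 to 65.7%), in ranks 1261 to 1512 36.9%, and in ranks 2269 to 2519 7.56% (4.54 to 11.7%). The share overlapping a liver or kidney peak was 96.0% in the first of these rank classes (92.8 to 98.1%), 15.9% in the second and 1.20% in the last (0.247 to 3.45%). The share with no protein-coding gene within 50 kb went from 2.38% (0.879 to 5.11%) to 14.7% (10.6 to 19.7%). Over the whole list 518 peaks (20.6%) were found in all 3 tissues, 136 (5.40%) in heart and liver, 228 (9.05%) in heart and kidney and 1637 (65.0%) in heart only. Since the 3 lists may differ in read depth, which is unknown, a peak missing from another list cannot be told apart from one below that list's threshold.

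**Figure D5:**
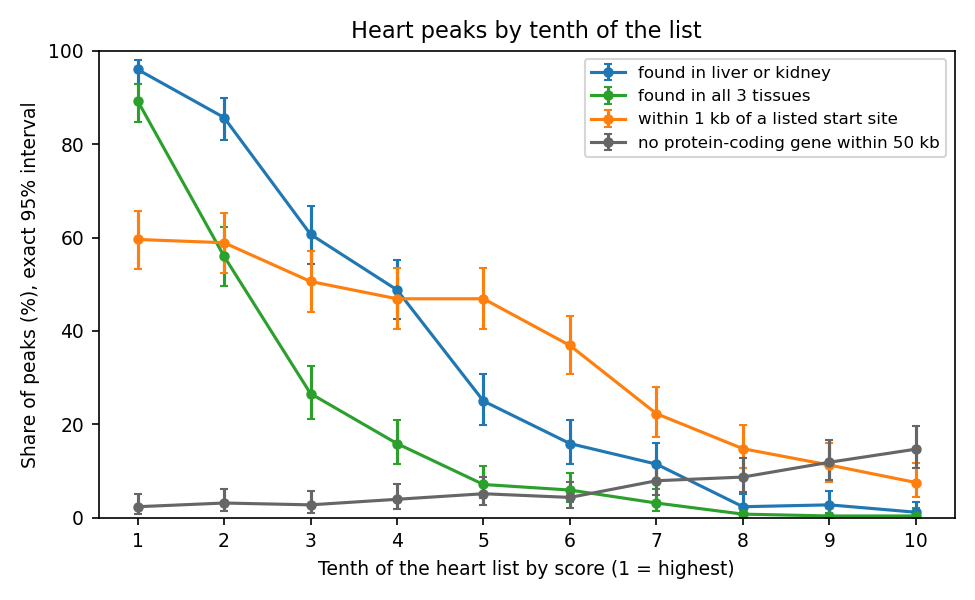
Percent of heart peaks (vertical axis) in 10 rank classes of 252 peaks, 251 in the last (horizontal axis, highest scores at the left), with exact 95% intervals over peaks, for peaks found in liver or kidney, found in all 3 tissues, within 1 kb of a listed start, and peaks with no protein-coding gene within 50 kb. The share at starts goes from 59.6% to 7.56% and the share without a gene from 2.38% to 14.7%.

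In ranks 1 to 252, 10 peaks were heart only. They included the Tcap peak of score 97, Pfkl and the kinase gene Wnk2 with 87 each, Arl8a, a small GTPase of lysosomes, and Rbm20 with 83 each, Ntng2, a netrin-G, with 81, and Lekr1 with 79. A peak of score 76 at chr4:47594195-47594392 had no protein-coding gene within 50 kb, and Entpd6, a nucleotidase, had 75. One of the 10 centres, that of Pfkl, lay within 1 kb of a listed start of its own gene.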

How the data were processed

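BMAL1 ChIP and input libraries of heart, liver and kidney were grouped by title, 3 of each per tissue. Libraries were made from 10 ng of DNA fixed with 1% formaldehyde, with 16 PCR cycles, and read at 75 bp, per the labels' protocols. The authors deposited 1 list per tissue from all replicates together, per the series' design text. Bowtie2, SAMtools, HOMER and the build mm10 are named in the submitters' processing notes; their roles and the peak threshold were not stated. Each peak has a score that the authors deposited, whose scale is not stated; read depth is unknown.

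Peaks were assigned with Python 3.11.15, pandas 2.3.3, NumPy 2.4.6 and SciPy 1.17.1 to the gene body nearest to the peak centre (RefSeq GRCm38.p6, 21887 protein-coding genes). Start sites and 300-base windows came from the RefSeq promoter table, which listed starts for 17492 of these genes and none for chromosome 18, where 90 heart peaks lie. Motifs were read only there, as no genome was used here. Sharing meant an overlap of at least 1 bp. Functions were tested on simulated data. No test between groups was possible, since replicates were pooled.

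Named genes were those of the 30 highest peaks, the 30 genes with most peaks, all clock genes, up to 6 genes per other list by best rank, and the genes of the 10 highest heart-only peaks. The Stard3 and Lsm3 peaks, the genes at the 50 kb limit, and list members named without an assigned peak were chosen after their values were seen. A few genes that the rule selects are not reported here. Members and lists were chosen with earlier results of these data known. The output gene Ccrn4l did not match a symbol.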

Additional observations from a re-analysis of the deposited data

How the results depend on the processing

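No paired analysis was possible because each tissue has 1 pooled list, and for the same reason no replicate could be left out. The upper 50% of the list by score gave 1113 genes with a peak (2080 in full), 15 genes with 3 or more (40 in full), 52.6% of peaks at a start (35.8% in full), 63.2% found in liver or kidney (35.0% in full) and 46.5% of bound windows with CACGTG (40.8% in full). Genes with 3 or more peaks numbered 18 with all annotated genes, all of them among the 40, and 19 by nearest listed start, 13 of them among the 40. They numbered 32 within 10 kb, 44 within 100 kb and 40 with peaks within 500 bp counted once. The share at a start was 45.0% within 5 kb, 24.4% within 250 bp and 32.9% with starts of protein-coding genes only. The share found elsewhere was 37.1% with centres within 1000 bp, 29% against the upper 50% of the other lists, and 34.0% with at least 50% of the heart peak covered. Counting CACGTG or CACGTT gave 47.8% of bound windows. Clock genes held 17 to 20 of the top 50 peaks under the other assignments, against 21. Depth and the spread between mice are unknown, and ranks among the many tied low scores have no meaning beyond position.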

Other observations

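Heart peaks were sparse on chromosome X. It held 23 heart peaks, or 0.913% of the list (exact 95% interval 0.580 to 1.37%). Of the protein-coding genes on X, 1.55% had a heart peak (15 of 966), against 9.99% of those on autosomes (2065 of 20665). The liver list gave 2.80% and 15.5%, and the kidney list 3.21% and 14.6%. Of the 15 genes, Bcor and Tsc22d3 held 3 or more heart peaks. These genes were looked at after the data were seen.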
